A study of Mus musculus with 4 samples.

Results

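Fibroblasts and endothelial cells, the connective tissue and blood vessel lining of a tumour, made up 52 of 12609 droplet barcodes that passed the depth and mitochondrial limits in 4 mouse tumour libraries. All 52 were chosen from the measured counts. A barcode had to hold at least 500 unique molecular identifiers (UMIs, each standing for 1 captured RNA molecule), have at most 20% of them from mitochondrial genes, have no UMI of the leukocyte gene Ptprc, and have less than 0.3% from the pigment genes Dct, Pmel, Mlana and Tyrp1. It was called a fibroblast when Col1a1, Col1a2, Col3a1 and Dcn took at least 1% of its UMIs. It was called endothelial when Pecam1, Cdh5, Kdr, Flt1, Egfl7 and Plvap took at least 0.2% and at least 4 UMIs. The rule gave 31 fibroblast and 21 endothelial barcodes, and 0 barcodes met both limits.

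The study placed tumour cells of C57Bl6 mice aged 6 to 8 weeks in 2 groups, Control and Nanocapsule, with 2 libraries each. The series' title names enzyme nanocapsules and T cell immunity, and its design contrasts tumour cells with and without nanoparticles. What the control animals received, the dose, the tumour line, the number of animals in a library and any cell sorting are not given in the sources used here, and the labels call the cells of all 4 libraries cancer cells. Nothing in the labels says that the 2 libraries of a group came from separate animals, so every p-value measures only the spread between these libraries, which may be technical.

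Fibroblasts secrete the fibrillar collagens and proteoglycans of connective tissue, and in tumours they range from contractile, smooth muscle-like cells to matrix-secreting and cytokine-secreting ones. Pericytes, which wrap small vessels, also make collagen. Endothelial cells line the vessels: tip cells lead new sprouts into tissue, and capillary, arterial and venous cells behind them carry their own marker genes.

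Whole libraries held 98943390 to 140491491 UMIs. The controls had 4440 and 2438 passing barcodes and the nanocapsule libraries 3366 and 2365. Of the 12609, 8468 carried the pigment genes at 0.3% or more, held no Ptprc UMI and met neither stromal limit, and are called melanocytic here. Another 850 held a Ptprc UMI and less than 0.3% of pigment genes, and are called leukocytes or immune here. The remaining barcodes fell in none of these classes. The stromal barcodes were shallower than the melanocytic ones, with a median of 10685 UMIs in fibroblasts (835 to 47257) and 7253 in endothelial cells (661 to 34695) against 41707. A few deep barcodes carried much of each sum: the deepest fibroblast held 22.5% and 18.6% of the fibroblast UMIs of the control libraries and 43.5% and 43.9% of those of the nanocapsule libraries. In endothelial cells the deepest barcode held 43.1%, 23.2% and 67.5% in Control 1, Control 2 and Nanocapsule 1, and Nanocapsule 2 had 1 endothelial barcode in all. Doublets were not called.

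The genes that the rule and the results turn on are shown here by the DNA just upstream of their start, so that the matrix, mural and vascular genes can be compared as sequence. Each line gives 150 bases, from -160 to -11 relative to the annotated start, read on the gene's strand from RefSeq on GRCm38.p6. Col3a1, a fibrillar collagen, has its window at chr1:45311378-45311527 on the plus strand. Rgs5, the pericyte gene that set 3 fibroblast barcodes apart, has its window at chr1:169655341-169655490 on the plus strand. Flt1, a VEGF receptor used in the endothelial limit, has chr5:147726022-147726171 on the minus strand. Apln and Rbp7, which differed between the groups in endothelial cells, have chrX:48034864-48035013 and chr4:149454979-149455128, both on the minus strand.
Col3a1: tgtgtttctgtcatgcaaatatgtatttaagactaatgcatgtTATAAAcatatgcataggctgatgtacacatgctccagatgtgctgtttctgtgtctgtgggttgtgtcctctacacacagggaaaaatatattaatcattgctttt
Rgs5: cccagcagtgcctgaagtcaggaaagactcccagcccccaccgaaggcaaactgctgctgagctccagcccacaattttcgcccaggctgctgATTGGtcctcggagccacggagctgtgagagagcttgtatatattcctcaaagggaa
Flt1: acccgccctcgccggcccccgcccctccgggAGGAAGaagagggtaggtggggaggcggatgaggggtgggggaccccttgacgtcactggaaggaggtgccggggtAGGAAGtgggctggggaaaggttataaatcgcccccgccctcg
Apln: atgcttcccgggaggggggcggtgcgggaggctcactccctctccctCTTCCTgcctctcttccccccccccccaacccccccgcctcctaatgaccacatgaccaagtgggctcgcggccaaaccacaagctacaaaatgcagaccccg
Rbp7: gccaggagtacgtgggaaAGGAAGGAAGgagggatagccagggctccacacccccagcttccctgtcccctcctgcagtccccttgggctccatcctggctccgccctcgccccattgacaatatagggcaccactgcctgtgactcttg
Capitals mark matches on either strand to the motifs CCAAT or TATAAA in Col3a1 and Rgs5, and to the motif AGGAAG, a core of the kind bound by ETS factors, in the other three. Col3a1 had the motif TATAAA starting from -117. Rgs5 had the motif ATTGG, the other strand of CCAAT, starting from -67. Flt1 had 2 matches to the motif AGGAAG, starting from -129 and -53. Apln had the motif CTTCCT, the other strand of AGGAAG, starting from -113. Rbp7 had 2 overlapping matches, starting from -142 and -138. Among 32851 promoters in the same window, 24.7% held CCAAT or ATTGG, 7.69% TATAAA or TTTATA, and 19.3% AGGAAG or CTTCCT, so these matches are common and describe the letters only. The RefSeq table held 5 of the 10 genes of the rule and had no entry for Cdh5, Col1a1, Dcn, Pecam1 and Plvap.

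Fibroblast barcodes numbered 10 and 12 in the controls (replicates 1 and 2) but only 4 and 5 with nanocapsules. Their share of passing barcodes was 0.225% and 0.492% in the controls and 0.119% and 0.211% with nanocapsules. Both nanocapsule libraries were below both control libraries, with Nanocapsule 2 and Control 1 almost level. The group means were 0.359% ± 0.189 and 0.165% ± 0.0655 (SD, n = 2 each), a log2 ratio of -1.12, and the two-sided exact permutation test gave p = 0.33, the smallest that 2 against 2 libraries allow.

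Endothelial barcodes numbered 5 and 12 in the controls and 3 and 1 with nanocapsules. The shares were 0.113% and 0.492% against 0.0891% and 0.0423%. Again both nanocapsule libraries were lowest, and Control 2 stood far above the other three. The means were 0.302% ± 0.268 and 0.0657% ± 0.0331 (SD, n = 2 each), a log2 ratio of -2.20, with an exact permutation p of 0.33. Without Control 2 the log2 ratio was -0.78 for endothelial cells and -0.45 for fibroblasts, against -2.20 and -1.12 with all libraries.

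Counting error alone was wide. The 95% Clopper-Pearson interval of the fibroblast share ran from 0.108% to 0.414% and from 0.255% to 0.858% in the controls, and from 0.0324% to 0.304% and from 0.0687% to 0.493% with nanocapsules, so these intervals overlapped. There were 2 and 1 fibroblasts per endothelial barcode in the controls and 1.33 and 5 with nanocapsules, and these values overlapped between the groups (exact permutation p = 0.667). Leukocyte barcodes (a Ptprc UMI and pigment genes under 0.3%), counted beside them, took 4.05% and 11.9% in the controls and 4.93% and 9.05% with nanocapsules. Control 2 and Nanocapsule 2 thus had the larger leukocyte shares, and Control 2 also had the larger stromal shares.

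**Figure D1:**
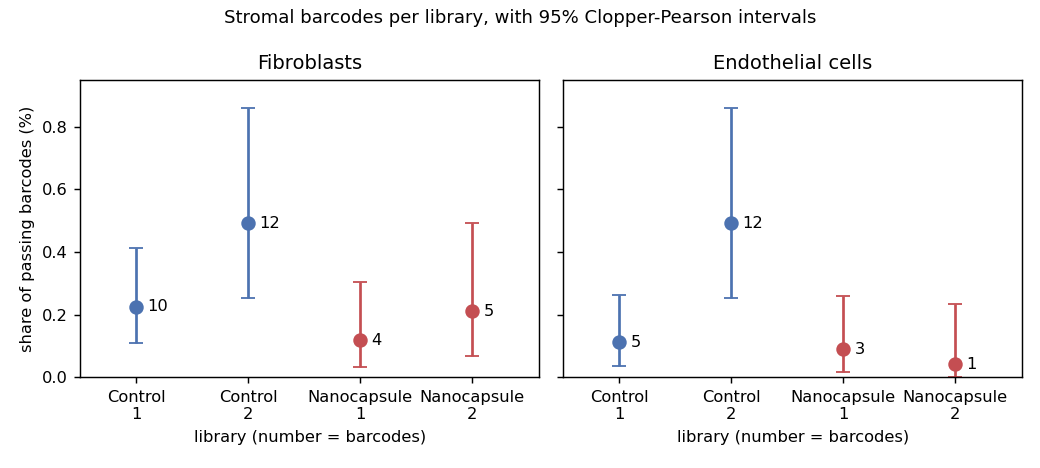
The vertical axis gives the percent of passing barcodes called fibroblast (left) or endothelial (right) in each of the 4 libraries, controls in blue and nanocapsule libraries in red. Bars are 95% Clopper-Pearson intervals and the printed numbers are barcodes; Control 2 is highest in both panels, at 0.492%.

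The limits left little out. Of 32 barcodes that met the fibroblast gene limit, 1 in Control 2 was lost for pigment genes at or over 0.3%, and of 25 that met the endothelial limit, 4 were lost for a Ptprc UMI, 1 in Control 1, 2 in Control 2 and 1 in Nanocapsule 2. Just inside the fibroblast limit lay a Control 1 barcode of 7218 UMIs at 1.05% and a Nanocapsule 2 barcode of 2347 UMIs at 1.15%. Just outside lay a Nanocapsule 2 barcode of 503 UMIs at 0.994%, a Control 1 barcode of 1412 UMIs at 0.779% and a deep Nanocapsule 2 barcode of 31692 UMIs at 0.764%, which held 28 UMIs of Pdgfrb, 60 of Acta2 and 11 of Cspg4. Just inside the endothelial limit lay Control 2 barcodes at 0.221% and 0.228%. Among barcodes outside both limits, the one with most endothelial UMIs was in Nanocapsule 1, with 18 UMIs at 0.132%. It also held 27 UMIs of the pericyte channel gene Kcnj8. One fibroblast barcode sequence, in Control 1, also passed in Nanocapsule 1, where it held 1083 UMIs and 0 of the fibroblast genes; pairs of libraries shared 7 to 25 passing sequences in all.

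As sums, both classes carried markers of their own that the limits did not use, though some single fibroblast barcodes did not. Levels are CPM (a gene's UMIs per 1e+06 UMIs of its class in that library, not corrected for gene length), and each run of values by library lists the controls first, by replicate number, and then the nanocapsule libraries. The matrix protease gene Mmp2 was at 716, 751, 942 and 826 CPM in fibroblasts and at 0, 33.4, 0 and 0 CPM in endothelial cells. The vessel sialomucin gene Emcn was at 698, 735, 458 and 722 CPM in endothelial cells and at 0 in the fibroblasts of all 4 libraries. The Nanocapsule 2 fibroblast of 2347 UMIs had 175 genes, 14.3% mitochondrial UMIs and no marker beyond 27 UMIs of the 3 chosen collagens. In fibroblasts the chosen genes read as follows, as a description. Col1a1, the alpha1 chain of collagen I (chr11:94936224-94953042, plus strand, GRCm38), was at 21703, 13612, 12210 and 13484 CPM. Its partner Col1a2 was at 15106, 9631, 8444 and 8797, Col3a1 at 17736, 19532, 14751 and 16231, and the collagen-binding proteoglycan gene Dcn at 2971, 3089, 3676 and 2543. Control 1 was highest in both collagen I chains, and the other three libraries lay close together. All 31 barcodes held all 3 collagen genes, whereas 26 held Dcn.

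The collagen I chains, which assemble into 1 triple helix, kept a near-constant ratio of UMIs. There were 1.45 Col1a1 UMIs per Col1a2 UMI over the 31 barcodes, and 1.44, 1.41, 1.45 and 1.53 in the libraries. The log CPM of both genes had a Pearson correlation of 0.925 across the 31 barcodes, given as a description since barcodes share libraries and both genes were used in the choice. These ratios are not corrected for length.

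In endothelial cells the cell junction genes Pecam1 and Cdh5 (VE-cadherin) were at 1236, 1296, 1602 and 1204 CPM and at 1218, 1129, 1802 and 1385 CPM. The VEGF receptor gene Kdr was at 1039, 949, 1516 and 1475 CPM and Flt1 at 788, 1062, 2402 and 572 CPM. Egfl7, a vessel-secreted factor, was at 1218, 1383, 1001 and 1927 CPM, and Plvap, the diaphragm protein of fenestrated vessels, at 4405, 1584, 3203 and 2137 CPM. Control and nanocapsule libraries overlapped for Pecam1, Egfl7, Flt1 and Plvap. Fibroblasts held 0 UMIs of Pecam1, Cdh5 and Kdr, though Flt1 was present in them at 140, 62, 45 and 37 CPM. In Control 1, Control 2 and Nanocapsule 2 most of these Flt1 UMIs came from the 3 Rgs5 barcodes described below (15, 9 and 4 UMIs). Col1a1 was at 0, 6.7, 0 and 0 CPM in endothelial cells and at most 1.97 CPM in melanocytic barcodes.

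Pericyte and smooth muscle markers were high in the fibroblast sums, at 6107, 4123, 3079 and 7953 CPM over 14 genes, and at 548 to 1802 CPM in endothelial cells. Most of these fibroblast UMIs in Control 1, Control 2 and Nanocapsule 2 came from the 3 Rgs5 barcodes described below (547, 539 and 856 UMIs). At least 4 of these markers were found in 12 of the 31 fibroblast barcodes (4, 5, 2 and 1 by library), some of which activated fibroblasts also express, such as Acta2 and Pdgfrb. Markers of leukocytes and of pigment cells were low. Summed T and NK cell markers came to 0 to 9.3 CPM in fibroblasts and 0 in endothelial cells, and B cell markers to 0 to 14.9 and 0. Macrophage and monocyte markers came to 9.3 to 34.9 CPM in fibroblasts and 0 to 428 in endothelial cells, and 1 endothelial barcode of Control 2 with 7253 UMIs held 29 UMIs of immune genes and 9 of the venular chemokine receptor Ackr1. The 12 melanocytic markers came to 121 to 478 CPM in fibroblasts and 90 to 229 in endothelial cells, against 15386 to 16987 in melanocytic barcodes. Near-empty droplets of 10 to 100 UMIs, which hold mainly free RNA, had 7517 to 10234 CPM of the same markers. Schwann cell markers reached 87 to 232 CPM in fibroblasts. The part of free RNA in these low levels was not tested.

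Sex-chromosome genes gave a readout that the limits did not use. The Y-linked genes Ddx3y, Eif2s3y, Uty and Kdm5d, all on the Y chromosome and active in most male cells, summed to 122, 142, 89.7 and 102 CPM in fibroblasts and to 215, 200, 315 and 211 CPM in endothelial cells. Leukocytes lay in the same range, at 152, 166, 142 and 148 CPM. Melanocytic barcodes were at 0.252, 0.0976, 0.119 and 0.115 CPM, far below all 3 other classes in every library.

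In barcodes, 19 of 31 fibroblasts and 17 of 21 endothelial cells held a Y-linked UMI, against 54 of 8468 melanocytic barcodes, although the melanocytic ones were deeper. Thinned to 2000 UMIs, a depth that 29 fibroblast, 18 endothelial and 7230 melanocytic barcodes reached, the expected shares with a Y-linked UMI were 21%, 34.2% and 0.0470%, and 28.3% in leukocytes. Xist, the RNA that coats an inactive X chromosome in female cells, had 0 UMIs in fibroblasts and 0 in endothelial cells. Those zeros allow up to 6.64 and 11 CPM, which is 3 counts of 451628 and 273700 UMIs. Melanocytic barcodes held 47 Xist UMIs in all, or 0.121 CPM.

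**Figure D2:**
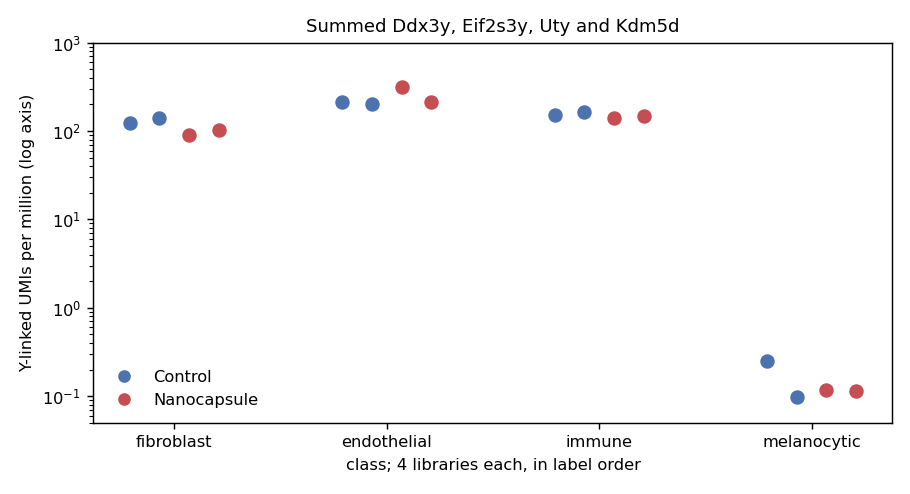
The vertical axis gives the summed CPM of 4 Y-linked genes on a log scale, with 1 point per library in each class, controls in blue and nanocapsule libraries in red. Fibroblast, endothelial and immune barcodes lie between 89.7 and 315 CPM and melanocytic barcodes at or under 0.252 CPM.

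Beyond the chosen collagens, fibroblasts carried a broad matrix programme. Among the 901 genes with at least 100 CPM in every library, those with the highest ratio over melanocytic barcodes were Igfbp5, Mgp, Ccl11, Serpine2, Ly6c1, Slit3, Acta2, Col6a3, Tnc and Fbn1, named as a description since classes were cut from the same cells. The 9 genes of a fibrillar collagen list, with the chosen Col1a1, Col1a2 and Col3a1 among them, summed to 63274, 46904, 39739 and 41769 CPM. The same list came to 0 to 127 CPM in endothelial cells and 7.7 to 14.1 in melanocytic barcodes. Control 1 had the most and both nanocapsule libraries the least. Basement membrane genes were present in the sums of both stromal classes, at 27766, 18757, 16335 and 22318 CPM in fibroblasts and 33484, 19236, 39523 and 22909 CPM in endothelial cells. The basement membrane collagen Col4a1 stood at 5504, 1920, 1569 and 2171 CPM in fibroblasts and at 8111, 4784, 8951 and 6532 CPM in endothelial cells. Most fibroblast Col4a1 UMIs of Control 1, Control 2 and Nanocapsule 2 came from the 3 Rgs5 barcodes described below (473, 179 and 226 UMIs). Lama2, a laminin chain of muscle and fibroblasts, had 130 to 382 CPM in fibroblasts and 0 in endothelial cells.

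Fibroblast barcodes differed among themselves. There were 3 barcodes, 1 each in Control 1, Control 2 and Nanocapsule 2, that held Rgs5, a pericyte regulator of G protein signalling. All 3 also held Notch3, the mural Notch receptor, and none held a UMI of Pdgfra, Dpt or Lum, which mark matrix fibroblasts. The Control 1 barcode (25696 UMIs) had 10 UMIs of Rgs5 and 279 of the smooth muscle actin gene Acta2, the Control 2 barcode (27215 UMIs) had 54 and 264, and the Nanocapsule 2 barcode (47257 UMIs) had 212 and 346. These 3 barcodes met the collagen limit while carrying these mural genes and lacking these fibroblast genes. The class is thus one of collagen-rich stromal barcodes, and fibroblast is its working name. Some barcodes without Rgs5 or Notch3 also held Acta2 and lacked Pdgfra, Dpt and Lum. They had 39 and 30 Acta2 UMIs in Nanocapsule 1 (6623 and 10260 UMIs) and 14 in Control 1 (7218 UMIs).

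At another end, 5 barcodes held at least 5 UMIs of Pi16, a marker of fibroblasts around vessels and under the mesothelium, 3 in Control 2 and 2 in Nanocapsule 2. The Control 2 barcodes held 45, 47 and 24 Pi16 UMIs in 15409, 11888 and 5659 UMIs. The Nanocapsule 2 barcodes held 116 and 26 in 30244 and 24390 UMIs, with 133 and 39 UMIs of the complement gene C3 and 164 and 263 of the progenitor surface gene Ly6a. None of the 5 held a UMI of Tnc, the wound and tumour matrix glycoprotein. No barcode held both Pi16 and Rgs5, and Pi16 was at 0 in all 10 fibroblasts of Control 1, whose Pi16 level was therefore 0 CPM against 738 CPM for the other control, and 14.9 and 1318 CPM with nanocapsules.

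Most barcodes lay between these ends. The matricellular gene Postn was found in 27 of 31, the PDGF receptors Pdgfra in 19 and Pdgfrb in 18, either receptor in 26 and both in 11. Tnc was found in 17 barcodes, Lum in 19 and Acta2 in 15, with at least 10 Acta2 UMIs in 9 barcodes (3, 2, 3 and 1 by library). Some levels followed the library number: Tnc was at 2997 and 2959 CPM in the libraries numbered 1 but at 578 and 102 in those numbered 2, while Fbn1 (fibrillin) ran the other way at 1634 and 792 against 3243 and 3257. In both genes the number of the library, not its group, separated high from low.

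**Figure D3:**
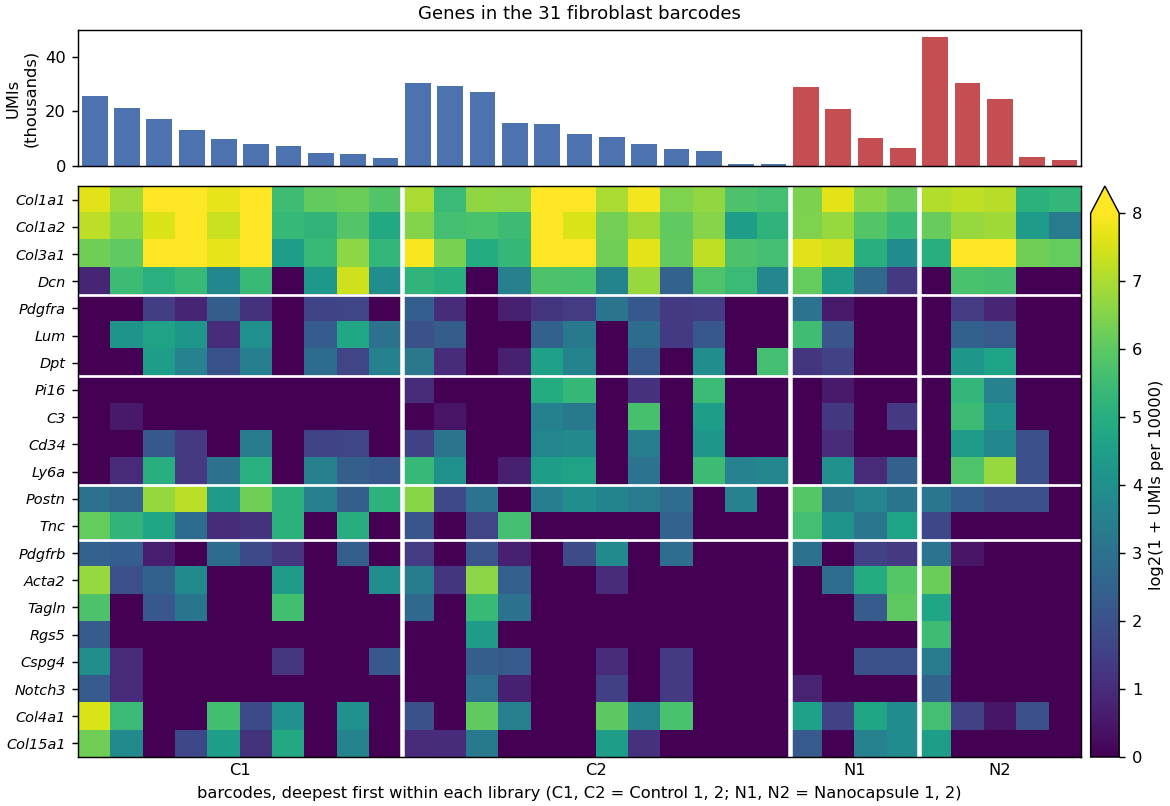
Columns are the 31 fibroblast barcodes, deepest first within each library, and rows are genes, with colour giving log2(1 + UMIs per 10000) and the bars above giving UMIs per barcode (blue control, red nanocapsule). The 3 barcodes with Rgs5 lack Pdgfra, Lum and Dpt, and those with high Pi16 sit in Control 2 and Nanocapsule 2.

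The treatment contrast was fitted over all genes of each class, although a library held fewer than the 5 barcodes that the design had set as a minimum for a gene test (4 fibroblasts in Nanocapsule 1, 3 and 1 endothelial barcodes in Nanocapsule 1 and 2). These fits were added after the counts were seen, and values per library lead. In fibroblasts, edgeR's quasi-likelihood test with Benjamini-Hochberg adjustment tested 1939 genes and called 0 (0% of genes tested; smallest adjusted p = 0.997), and DESeq2 also called 0. At an unadjusted p under 0.05 there were 52 genes (2.68%), 15 higher and 37 lower with nanocapsules.

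Of the 10 fibroblast genes of lowest unadjusted p, none of which passed the test, 8 had lower values with nanocapsules. Ccn2, a matricellular target of TGF-beta and YAP signalling (chr10:24595442-24598683, plus strand, GRCm38), was at 778, 695, 89.7 and 139 CPM, so that both nanocapsule libraries lay far under both controls (log2 fold -2.66, SE 0.48, edgeR adjusted p = 0.997, unadjusted p = 0.0016). Few barcodes carried these sums except in Control 1, where 29, 23, 17 and 14 Ccn2 UMIs lay in separate barcodes. In Control 2, 1 barcode held 77 Ccn2 UMIs and the Rgs5 barcode 33. With nanocapsules they lay mainly in 1 barcode per library, 6 UMIs in Nanocapsule 1 and 13 in the Rgs5 barcode of Nanocapsule 2. Cilp, a cartilage and fascia matrix gene, had 80 control UMIs and 0 with nanocapsules, which is at least 16.8-fold lower taking 3 counts over the group as the floor. Lrrc15, a marker of tumour myofibroblasts, had 54 control UMIs and 0 with nanocapsules, at least 11.4-fold lower, and most of them were in Control 1 (349 CPM against 86.2 in Control 2). All 3 genes separated the groups in these libraries, as 16.3% of all genes tested did on the low side, and none was called. They were chosen for a low p or after their values were seen, so their separation is a description only.

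Itm2a stood at 507, 332, 14.9 and 46.4 CPM, Airn at 559, 351, 59.8 and 121, Fhl2 at 201, 111, 14.9 and 27.8, and the fibrillin gene Fbn2 at 192, 302, 44.8 and 65.0. The elastic fibre gene Mfap4 had 1 nanocapsule UMI against 41 in controls, a ratio of 25.9 with a counting interval of 4.39 to 1046, and the chemokine Cxcl12 had 3 against 47, a ratio of 9.88 (3.18 to 49.6). On the high side, Tnfaip6, a hyaluronan-binding gene of inflamed tissue, was at 568, 437, 1480 and 1383 CPM (log2 fold 1.51, SE 0.40, adjusted p = 0.997 by edgeR). Hp, the haptoglobin gene, had 1 control UMI against 96, and 86.5% of the nanocapsule UMIs came from 1 barcode. Airn is a long noncoding RNA that overlaps Igf2r on the opposite strand, and how the deposited counting treated strand is not given in the sources used here.

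By function, no fixed gene list held a called fibroblast gene. All 6 tested fibrillar collagen genes of 9 listed had a log2 fold below 0 (median -0.57), and 4 of them did not overlap between groups on the low side, where 16.3% of all genes tested did so and 50.2% had a fold above 0. That list includes Col1a1, Col1a2 and Col3a1, whose UMIs chose these barcodes, so its counts are a description only. Of the 9 tested contractile genes 8 were below 0 (median -0.47), and of the 12 tested basement membrane genes 10 (median -0.38). The collagen I chain Col1a1 itself had 21703 and 13612 CPM in controls against 12210 and 13484, nearly level once Control 1 is set aside. Acta2 was at 2866, 1871, 1225 and 3211 CPM and overlapped between the groups, and 80.8% of its nanocapsule UMIs came from the mural barcode of Nanocapsule 2.

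Antigen presentation genes were high in the fibroblasts of Nanocapsule 2, without a call, and the MHC class I list summed to 2167, 2234, 2466 and 5911 CPM. Of 8 tested MHC class I genes 7 had a fold above 0 (median 0.86), and 4 did not overlap on the high side, against 14.6% of all genes. B2m, the shared light chain, was at 813, 855, 1181 and 2079 CPM (log2 fold 0.96). H2-K1 was at 218, 308, 254 and 1197 CPM and H2-D1 at 349, 388, 389 and 1067, so in both only Nanocapsule 2 stood above the rest. One barcode held 42.9% of the nanocapsule B2m UMIs and 50.7% of those of H2-K1, and the 2 barcodes rich in Pi16 in Nanocapsule 2 held 70 and 130 B2m UMIs of 303 with nanocapsules. In melanocytic barcodes B2m was at 206, 219, 449 and 526 CPM. Endothelial B2m, H2-K1 and H2-D1 were not called, and their summed list ran at 3169, 4497, 6234 and 3372 CPM with overlapping groups.

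Hypoxia genes were high in 1 nanocapsule library. All 12 tested had a fold above 0 (median 0.68), yet 0 of them separated the groups, because Nanocapsule 1 alone was high: the list summed to 3521, 4455, 10611 and 2079 CPM, with Nanocapsule 2 lowest of all. Glycolytic genes followed, with Gapdh at 419, 443, 1465 and 362 CPM, Tpi1 at 253, 258, 1106 and 213, and Pkm at 515, 566, 1734 and 640. Timp1, a protease inhibitor, was at 1214, 406, 8758 and 900 CPM and the metallothionein Mt1 at 542, 942, 6695 and 557 CPM. In each of these genes the sum of Nanocapsule 1 was highest, but 1 barcode held 82.9% of the nanocapsule Mt1 UMIs and 51.0% of those of Timp1, against 27.7% for Gapdh, 41.2% for Tpi1 and 25.9% for Pkm. Inflammatory genes summed to 4237, 7661, 5276 and 11025 CPM, and 9 of 14 tested had a fold above 0. Catalase (Cat) was at 8.7, 36.9, 29.9 and 18.6 CPM and of 14 tested oxidative stress genes 8 had a fold above 0 (median 0.10).

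The endothelial barcodes carried genes of capillaries. Cd34, found on capillary endothelium but here also in 15 of 31 fibroblast barcodes, was in 17 of 21 endothelial barcodes. The lymphatic regulator Prox1 was in 0 of them, not detected at this depth, while the lymphatic and venular chemokine gene Ccl21a had 11 control UMIs. The genes with the highest ratio over melanocytic barcodes, among 971 at 100 CPM or more in every library, were Igfbp3, Gpihbp1, Esm1, Ctla2a, Trp53i11, Pdgfb, Robo4, Cxcl12, Myct1 and Shank3, again as a description. Igfbp3 was at 9186, 5078, 8808 and 5087 CPM, and Gpihbp1, which holds lipoprotein lipase on capillaries, at 2059, 1283, 2173 and 1866. Pdgfb, the ligand that recruits pericytes, was at 376, 287, 572 and 452 CPM, while its receptor gene Pdgfrb was at 288, 222, 344 and 325 CPM in fibroblasts and at most 13.4 in endothelial cells. The receptor was thus low in endothelial cells of every library, while the fibroblast level of Pdgfb is not given here. In Nanocapsule 2 the Rgs5 barcode held 34 Pdgfrb UMIs, and in Nanocapsule 1 a single barcode held 20. These were most of the fibroblast Pdgfrb UMIs of each of those libraries.

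Sprouting and capillary genes often occurred in the same endothelial barcodes. The tip cell gene Esm1 was found in 12 of 21 barcodes, the tip cell ligand gene Apln in 9, and both in 7. The fatty-acid carrier gene Fabp4 of capillaries was found in 17 and the retinol carrier gene Rbp7 in 7. Of the 12 barcodes with Esm1, 10 also held Fabp4, and all 4 barcodes with Apln in Control 2 also held Rbp7. By count, Fabp4 had more UMIs than Apln and Esm1 together in 10 barcodes, 1 in Control 1 and 9 in Control 2, and fewer in 9 barcodes, 4 and 1 in the controls and 3 and 1 with nanocapsules. All 4 nanocapsule barcodes thus had more UMIs of Apln and Esm1, but so did 4 of 5 in Control 1. Vwf, a gene of larger vessels, was in 10 barcodes. Ackr1, the venular gene, was in 2 barcodes, both in Control 2, which also held all 5 barcodes with Vwf and no Esm1.

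The nanocapsule endothelial cells were few and can be given one by one. The Nanocapsule 1 barcode of 23616 UMIs held 50 Apln, 86 Esm1, 47 Fabp4 and 0 Rbp7 UMIs. The others of that library held 3 Apln, 2 Esm1 and 0 Fabp4 in 6153 UMIs, and 7, 7 and 1 in 5198 UMIs. The single Nanocapsule 2 barcode held 83 Apln, 114 Esm1 and 19 Fabp4 in 33219 UMIs. Among barcodes of at least 5000 UMIs, Apln was found in 5 of 12 control and 4 of 4 nanocapsule barcodes, Esm1 in 6 of 12 and 4 of 4, and Rbp7 in 7 of 12 and 0 of 4. Barcodes of a library are not replicates of its group.

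**Figure D4:**
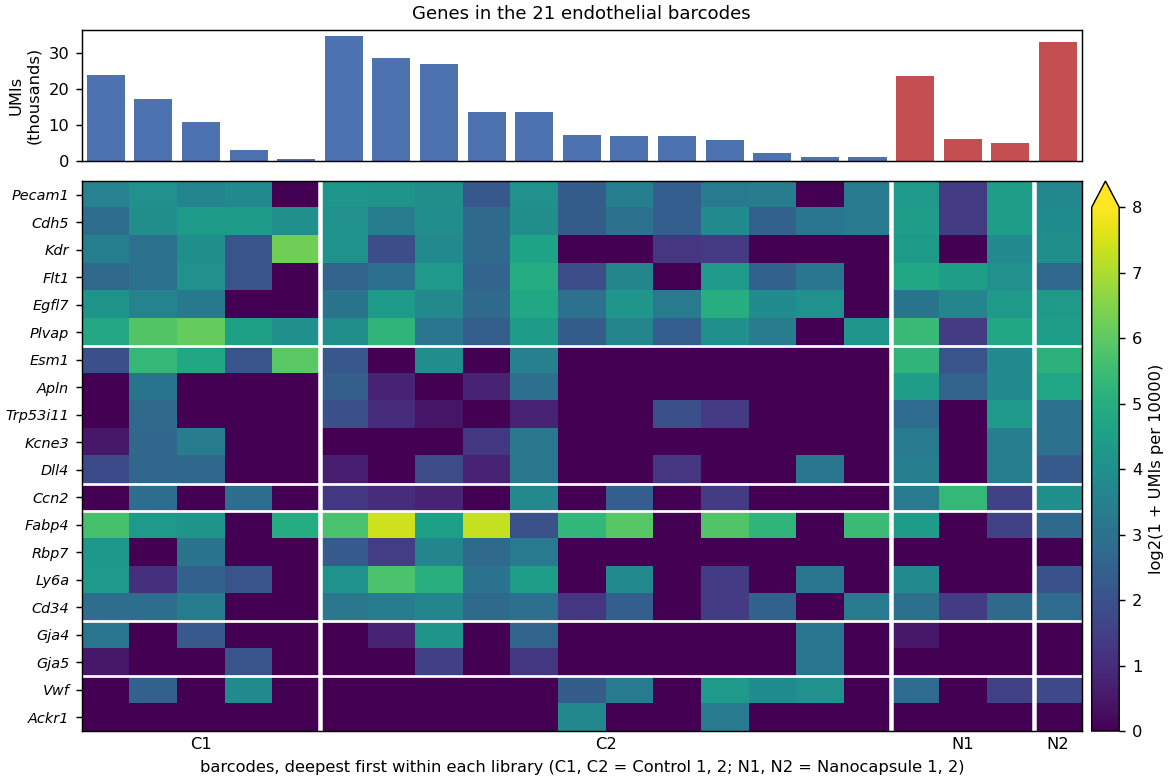
Columns are the 21 endothelial barcodes, deepest first within each library, and rows are genes, with colour giving log2(1 + UMIs per 10000) and the bars above giving UMIs per barcode (blue control, red nanocapsule). Apln is present in all 4 nanocapsule columns and Rbp7 in none of them.

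Between the groups, edgeR tested 880 endothelial genes and called 10 (1.14%), 3 higher (0.341%) and 7 lower (0.795%) with nanocapsules; 87 genes (9.89%) had an unadjusted p under 0.05. Apln, the apelin ligand gene (chrX:48025146-48034853, minus strand), was at 233, 180, 1716 and 2499 CPM. The nanocapsule libraries lay far over both controls, a log2 fold of 3.36 (SE 0.63, edgeR adjusted p = 0.0056). In fibroblasts Apln was at most at 29.9 CPM. Ccn2 was at 233, 207, 1316 and 1475 CPM and rose by 2.68 (SE 0.61, adjusted p = 0.0168 by edgeR). The Nanocapsule 1 barcodes of 23616, 6153 and 5198 UMIs held 21, 24 and 1 Ccn2 UMIs. The one of 6153 UMIs had 8.53% mitochondrial UMIs and 0.374% from the endothelial genes of the rule. All 49 Ccn2 UMIs of Nanocapsule 2 came from its single barcode. Trp53i11, listed among tip cell genes (chr2:93187548-93201759, plus strand), was at 179, 120, 686 and 722 CPM and rose by 2.29 (SE 0.53, edgeR adjusted p = 0.0173). Each of the 3 genes was higher in 2 of 2 nanocapsule libraries than in both controls. That was a condition of being named here, and 18.9% of all 880 genes did the same.

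The other 7 called genes fell, and all 7 rested on 0 to 4 nanocapsule UMIs. Rbp7 (chr4:149449687-149454978, minus strand), was at 931 and 474 CPM in controls from 123 UMIs and had 0 with nanocapsules, at least 13.6-fold lower (edgeR adjusted p = 0.00058). Stmn2, a microtubule regulator, had 70 control UMIs and 0, at least 7.74-fold lower (edgeR adjusted p = 0.0080). Timp3, a matrix-bound protease inhibitor, was at 430, 768, 57.2 and 30.1 CPM, a ratio of 15.4 with a counting interval of 5.15 to 75.4. The gap junction gene Gja4 had 1 nanocapsule UMI (ratio 25.9, interval 4.51 to 1035). The flow-responsive factor gene Klf2 had 2 (ratio 13.9, 3.74 to 117), and the lipid carrier gene Fabp5 had 3 (ratio 11.7, 3.90 to 57.8). Rflnb was at 734, 528, 85.8 and 30.1 CPM and fell by 3.35 on the log2 scale (SE 0.71).

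These 10 calls rest on 4 nanocapsule barcodes in 2 libraries. Without Nanocapsule 2, whose only endothelial barcode is 1 cell, 0 genes were called. Without Control 1 there were 3 calls, 1 of them among the 10, and without Control 2 there were 2, again 1 among the 10; without Nanocapsule 1, where that 1 barcode stood for the group, 34 were called, including all 10. DESeq2 called 3 genes, Rbp7, Apln and Ccn2. With no filter on low counts 8 of the 10 were called, and Ccn2 and Trp53i11, with log2 folds of 2.33 and 1.95, were not. Since 9 of the 10 barcodes with more Fabp4 than Apln and Esm1 UMIs were in Control 2, a different mix of vessel cells and a different level within cells cannot be told apart at this number of barcodes.

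Of 10 tested tip cell genes among 14 listed, 9 had a fold above 0 where 50.6% of all endothelial genes did (median 1.36). Of the same 10, 2 were called higher (0.341% of all genes) and 5 did not overlap on the high side (18.9% of all genes). The list includes Plvap, 1 of the 6 genes whose UMIs chose these barcodes, and it was drawn up with earlier results of these data known. Its counts are therefore a description only. Esm1 was at 1934, 428, 2717 and 3432 CPM, where Control 1 lay nearer to the nanocapsule libraries than to Control 2 (log2 fold 1.42, edgeR adjusted p = 0.503). Angpt2, which loosens vessel walls, was at 645, 26.7, 1001 and 1024 CPM and Kcne3 at 358, 86.9, 744 and 692. Dll4, the Notch ligand of tip cells, was at 376, 154, 801 and 391 CPM. In all of these Control 2 was lowest. Without Control 2 the tip cell list had 8 of 11 tested genes above 0 with a median of 0.63, and without Control 1 it had 11 of 11 with 2.08. Without Nanocapsule 1 it had 6 of 10 with a median of 0.92, and without Nanocapsule 2 it had 12 of 12 with 1.74.

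Capillary and arterial genes gave mixed values. Fabp4 was at 3080, 7082, 1373 and 572 CPM, lower in both nanocapsule libraries (log2 fold -2.34, edgeR adjusted p = 0.128). Gpihbp1, also of capillaries, was nearly level. Of 5 tested arterial Notch genes 3 had a fold above 0 and 1, Gja4, was called lower, where 0.795% of all genes tested were. Of the 78 control Gja4 UMIs, 1 barcode of Control 1 held 19 and 1 of Control 2 held 45. Of 10 tested junction genes 4 were above 0 (median -0.16) and none was called. Of 11 tested basement membrane genes 10 were above 0 (median 0.28), with the laminin chain Lamb1 at 555, 521, 2002 and 602 CPM and none called.

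All 7 tested immediate early genes, which respond within minutes to stress or dissociation, had a fold below 0 (median -1.27), and 4 did not overlap on the low side, where 20.3% of all endothelial genes did so. Fos was at 269, 862, 57.2 and 151 CPM (log2 fold -2.50, edgeR adjusted p = 0.104) and Jun at 430, 528, 229 and 30.1. None was called, and in fibroblasts 7 of 11 tested immediate early genes had a fold above 0 (median 0.16). Of 8 tested oxidative stress genes 2 were above 0 in endothelial cells (median -0.30).

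**Figure D5:**
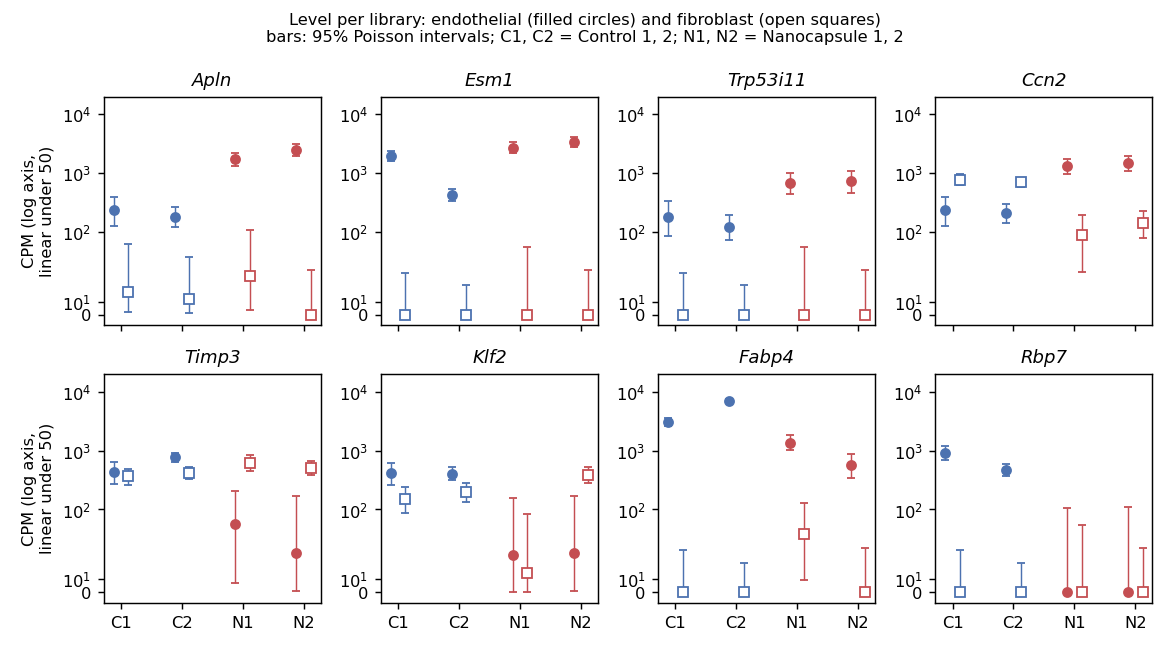
Each panel gives a gene's CPM in endothelial cells (filled circles) and fibroblasts (open squares) of the 4 libraries, on a log axis that is linear under 50, with 95% Poisson intervals that cover counting error only. Endothelial Apln and Ccn2 are higher in both nanocapsule libraries and Rbp7 is at 0 in them, while fibroblast Ccn2 is lower.

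Whether the classes responded differently was tested directly, as the difference between 2 treatment contrasts over 4350 genes. Between fibroblasts and endothelial cells 2 genes were called (0.046%). Ccn2 was at 778, 695, 89.7 and 139 CPM in fibroblasts and at 233, 207, 1316 and 1475 CPM in endothelial cells, lower with nanocapsules in one class and higher in the other, a difference of -4.92 log2 units (SE 0.61, edgeR adjusted p = 0.00196). Outside Control 1, the fibroblast Ccn2 UMIs lay in few barcodes, as given above, and so did the endothelial ones with nanocapsules. Timp3 was at 367, 418, 628 and 510 CPM in fibroblasts, with no call, against the endothelial values above, a difference of 4.72 (SE 0.78, edgeR adjusted p = 0.0348). Without Control 2 the adjusted p was 0.0563 for Ccn2 and 0.383 for Timp3, and without Nanocapsule 1 it was 0.0725 for Timp3.

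Against melanocytic barcodes, fibroblasts differed in response in 1 gene (0.023%), again Ccn2, by -3.56 (SE 0.56, edgeR adjusted p = 0.0406), where melanocytic Ccn2 was at 6.46, 5.50, 14.5 and 8.82 CPM. That call was lost without Control 1 (adjusted p = 0.286), without Control 2 (0.291) and without Nanocapsule 1 (0.0955). Endothelial and melanocytic responses differed in 0 genes by edgeR (0%; smallest adjusted p = 0.0577), with 248 at an unadjusted p under 0.05.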

How the data were processed

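For each library the authors deposited its UMI counts, raw and with empty droplets included. Per the labels, libraries used the 10x Genomics 3-prime v2 protocol; the submitters' processing notes name Cell Ranger 2.1.1 and mm10, whereas the matrix headers name Cell Ranger 4. Barcodes were taken by the rule given above, and counts were summed per class and library. The members, gene lists and markers were chosen with earlier results of these data known. Sums were tested with edgeR 4.0.16 under R 4.3.3 (TMM scaling, filterByExpr, robust quasi-likelihood fits, 2 against 2 libraries, Benjamini-Hochberg threshold 0.05); each SE was taken as log2 fold over root F. DESeq2 1.42.0, other scaling, other filters and left-out libraries were alternatives. The planned minimum of 5 barcodes per library was not met, so these fits were added after the data were seen. Shares were compared by exact permutation tests in scipy 1.17.1. Intervals and the floor of 3 counts cover counting error only. In simulated data, 36.5% of 4-fold and 98.9% of 16-fold changes were recovered in fibroblasts, and 63.9% and 98.4% in endothelial cells. False calls numbered 2 and 12 in fibroblasts and 3 and 2 in endothelial cells. The simulation gave every gene 1 common dispersion and did not model single barcodes, so these figures do not measure recovery in the real sums. Named genes were the called genes with at least 20 CPM or, with fewer than 5 calls, the 10 of smallest p; up to 4 of each list that passed or its 3 highest; the rule's genes; and 10 leading genes per class. Others, such as Lrrc15, Cat and the genes of single barcodes, were chosen after their values were seen. Promoters come from RefSeq (GRCm38.p6) and gene positions from GENCODE M21 (GRCm38).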

Additional observations from a re-analysis of the deposited data

Results flagged for a closer look

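The response to nanocapsules differed between classes in 3 results, by a test of the difference itself (edgeR, Benjamini-Hochberg adjusted p). The log2 fold of Ccn2 in fibroblasts minus that in melanocytic barcodes was -3.56 (adjusted p = 0.0406). The same difference between fibroblasts and endothelial cells was -4.92 for Ccn2 (adjusted p = 0.00196) and 4.72 for Timp3 (adjusted p = 0.0348). With each library left out in turn, the adjusted p ran from 0.0016 to 0.291, from 0.00015 to 0.0563, and from 0.0198 to 0.383 for these results. Endothelial Timp3 had 3 nanocapsule UMIs.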

How the results depend on the processing

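The share of fibroblasts and of endothelial cells stayed lower with nanocapsules under every alternative run: with each library left out, the log2 ratio ranged from -1.59 to -0.45 and from -2.91 to -0.78. Fibroblasts per endothelial barcode ranged from -0.085 to 1.82 (log2), reversed at -0.085 without Nanocapsule 2; the cause was not tested. With no filter on low counts 26 fibroblast and 16 endothelial genes were called (8 of the 10 endothelial genes reported, without Ccn2 and Trp53i11), and 3, 9 and 5 genes differed in response between fibroblasts and melanocytic, endothelial and melanocytic, and fibroblast and endothelial barcodes. DESeq2 called 3 endothelial genes. Leaving out each library gave 0 to 158 fibroblast calls (158 without Nanocapsule 2, 45 without Nanocapsule 1), 0 to 34 endothelial calls, and 0 to 12, 0 to 8 and 0 to 65 differences between classes; an arm left with 1 library was assumed to vary like the other. Whether replicate numbers pair the samples could not be settled. Deviations of same-numbered libraries correlated at 0.208 in fibroblasts and 0.277 in endothelial cells. With 2 libraries per group both numbers give the same value by construction, so each class has 1 correlation. With the number as a replicate block 3 fibroblast and 30 endothelial genes were called. Depth limits most values: the classes hold 451628 and 273700 UMIs, and 34967 and 33219 in the nanocapsule endothelial cells, where 3 counts are 85.8 and 90.3 CPM.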
